A study of Mus musculus with 19 samples.

Results

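The paternally expressed domain of Snrpn and Ndn on mouse chromosome 7 was followed by all rows of 7 genes, Snrpn, Snurf, D7Ertd715e, Ndn, Magel2, Mkrn3 and Peg12, out of 22521 genes with total expression values. The genes were chosen by name, as members of this domain. All 7 had total RPKM (reads scaled by transcript length and library size) at both stages and allelic RPKM. Of the 7, 3 had allelic read counts in morulae and 4 had them in extra-embryonic ectoderm (ExE), the trophoblast tissue that borders the epiblast. The intervals listed for them lie in mm9, on chromosome 7, between position 67114463 for D7Ertd715e and position 69609396 for Peg12. Snrpn (67127388 to 67128163, minus strand) and Snurf share 1 interval there, with D7Ertd715e 11.96 kb away from it. Ndn (69493163 to 69494813, plus strand) lies 2.37 Mb further on, and Ndn, Magel2, Mkrn3 and Peg12 lie together within 0.116 Mb.

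The study asked what the loss of Eed, a core subunit of the Polycomb complex PRC2 that methylates histone H3 at lysine 27, from the oocyte does to imprinted expression in the embryo. Control embryos (CTR) had Eed-fl/fl mothers without Cre. Maternal knockout embryos (matKO) had Eed-fl/fl mothers carrying Gdf9-Cre, a transgene that acts in the growing oocyte. All fathers were wild type for Eed. The matKO embryos thus also received a deleted maternal Eed allele. Loss of Eed from the oocyte and of that allele in the embryo cannot be told apart. Mothers were of B6/129 background and fathers of the PWK strain in both groups, so that transcripts of each parental allele could be told apart at sequence variants, and strain and parent of origin cannot be told apart. There were 2 CTR and 2 matKO morula libraries. ExE, taken at embryonic day 6.5, gave 2 female and 2 male libraries for CTR, and 4 female and 5 male ones for matKO. The labels do not say how many embryos or litters stand behind a library, so p-values measure the spread between these libraries only.

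Genes of this domain are expressed from the paternal allele. The maternal allele is silenced through DNA methylation that the oocyte places at the Snrpn promoter, and that promoter region controls the whole cluster. In humans the loss of paternal expression of the matching region causes Prader-Willi syndrome, while the neighbouring Ube3a, expressed from the maternal allele in neurons and from both alleles in most other tissues, is the gene of Angelman syndrome. A second kind of imprint rests on histone H3 methylation at lysine 27 instead of DNA methylation, and Eed belongs to the enzyme that makes that mark. Snrpn encodes SmN, a core protein of splicing particles, and Snurf is a short reading frame upstream on the same transcript. D7Ertd715e is an older name of Snhg14, the long noncoding RNA that runs from the Snrpn promoter region towards Ube3a and hosts small nucleolar RNAs. Ndn and Magel2 encode proteins of the MAGE family, Mkrn3 a ubiquitin ligase of the makorin family and Peg12 a Frat family protein that binds the kinase GSK3.

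Promoter sequences, from 250 bases before to 50 bases after a transcription start, were taken from RefSeq for build GRCm38.p6 and found for 6 of the 7 names, at 8 starts in all. They are shown because Snrpn and Ndn, megabases apart in the genome, share a run of letters. The palindrome CGCATGCG, which reads the same on both strands and resembles the core of the motif of the transcription factor NRF1, stood in 5 of the 8 starts, all 4 Snrpn starts and the Ndn start. It stood in 611 of 32817 promoters of the same length, or 1.86%. It was chosen for counting after these sequences had been read. The 3 upstream Snrpn starts resemble each other around the palindrome, so they are not separate occurrences. The motif TGCCGC, which the imprint-protecting protein ZFP57 binds when it is methylated, stood on either strand in 1 of the 8 starts, that of Snrpn and Snurf, against 11.6% of all promoters. The motifs did not overlap there. In the sequences, written from 5′ to 3′ on the strand of the gene, both motifs are in capitals. The first is the start shared by Snrpn and Snurf, chr7:60005150-60005449, minus strand, with the palindrome beginning 36 bases after the start. The second is Ndn, chr7:62348027-62348326, plus strand, with the palindrome beginning 23 bases before the start. The last 3 are windows of 28 bases around the palindrome at the 3 upstream starts of Snrpn, whose promoters span chr7:60047929-60048228, chr7:60140176-60140475 and chr7:60450128-60450427 on the minus strand. At these the palindrome began 71, 78 and 63 bases before the start.
Snrpn and Snurf: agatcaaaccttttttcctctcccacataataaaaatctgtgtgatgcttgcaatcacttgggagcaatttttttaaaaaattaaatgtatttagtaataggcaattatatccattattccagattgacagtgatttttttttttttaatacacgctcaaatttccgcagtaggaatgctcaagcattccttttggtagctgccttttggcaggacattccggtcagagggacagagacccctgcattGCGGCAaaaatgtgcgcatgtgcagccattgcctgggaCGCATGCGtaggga
Ndn: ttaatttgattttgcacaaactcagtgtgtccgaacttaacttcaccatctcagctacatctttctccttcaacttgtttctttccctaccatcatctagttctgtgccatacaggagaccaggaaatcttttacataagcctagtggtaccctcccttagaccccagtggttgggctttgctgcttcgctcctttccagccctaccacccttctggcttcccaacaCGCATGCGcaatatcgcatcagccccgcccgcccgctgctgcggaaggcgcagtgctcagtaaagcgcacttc
Snrpn, upstream start at chr7:60047929-60048228: caaacatgcaCGCATGCGtcgttgaagg
Snrpn, upstream start at chr7:60140176-60140475: caaacatccaCGCATGCGtgatgggagg
Snrpn, upstream start at chr7:60450128-60450427: caaacatccaCGCATGCGtgattggaag
The Snrpn and Snurf start held 7 CpG dinucleotides, which is also the median of all promoters, and the Ndn start held 11. The 3 upstream Snrpn starts held 4, 3 and 2. The Magel2, Mkrn3 and Peg12 starts held neither motif in these windows. Nothing in the data measured binding or methylation at these sequences.

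Allelic columns held 3327373 to 5109159 reads over variants per morula library and 4696355 to 9828943 in ExE. The depth behind total RPKM is unknown. Eed followed its labels: its maternal percent of allelic RPKM in ExE was 45.8 ± 1.68 (SD, n = 4) in CTR and 13.7 ± 2.27 (SD, n = 9) in matKO, and the maternal to paternal ratio fell by 2.34 on the log2 scale (limma, adjusted p = 2.13e-06). In morulae 37.7% and 46.0% of Eed reads were maternal in CTR against 16.02% and 20.9% in matKO. The 7 ExE markers summed to 480 to 604 RPKM in CTR and 407 to 702 in matKO, but matKO males 4 and 5 stood apart within the list. Esrrb, a trophoblast stem cell factor, was at 0.31 RPKM in matKO male 4 and 3.77 in matKO male 5 against 26.0 to 55.8 in the other 11. Sox2 was at 0.072 and 1.5 in these males against 9.17 to 23.1, and Bmp4 at 2.95 and 14.7 against 85.5 to 196. Cdx2 was also lowest in both, whereas Tfap2c was highest in both, at 198 and 129 against 38.9 to 109. The 4 ectoplacental cone and giant cell markers summed to 674 RPKM in matKO male 4 and 504 in matKO male 5, against 127 to 179 in CTR, while the lowest matKO library was at 55.8. They came from Ascl2 and Hand1, with Tpbpa and Prl3d1 at or near 0. The 6 markers of decidua and maternal stroma summed to at most 1.38 RPKM in any ExE library and the 3 blood markers were at 0, so that maternal tissue markers were at or near 0. The 6 epiblast markers summed to 567 to 712 RPKM in CTR and 386 to 896 in matKO, and the 4 markers of primitive streak and mesoderm to 14.2 to 29.1 and 17.1 to 29.9. Of the epiblast sum nearly all was Utf1, at 320 to 757 RPKM, and Dnmt3b, at 65.9 to 129, while Pou5f1, Nanog, Otx2 and Fgf5 were each at 0 to 8 RPKM. Visceral endoderm markers summed to 47.0 RPKM in matKO male 5, where Ttr, the gene of a thyroid hormone carrier, stood at 14.1. The 5 morula markers summed to 117 to 152 RPKM and the 3 cumulus markers to at most 0.057. Some values that rest on matKO males 4 and 5 are given with and without them.

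Snrpn had the highest RPKM of the domain at both stages. Snrpn and Snurf share 1 interval, with listed lengths of 775 and 776 bases. The place of Snurf in the order is therefore that of its listed value and not the level of a separate transcript. In ExE the order of the mean levels over 13 libraries was Snrpn at 109, D7Ertd715e at 14.2, Snurf at 6.48, Ndn at 2.05, Peg12 at 1.07, Mkrn3 at 0.66 and Magel2 at 0.026 RPKM. Each gene stood above the next in all 13 libraries, except that Peg12 stood above Mkrn3 in 10 of 13. The ranges over libraries of D7Ertd715e and Snurf, of Ndn and Peg12, and of Peg12 and Mkrn3 overlapped. In morulae the order was the same down to Ndn, and Mkrn3 (0.67 RPKM) stood above Peg12 (0.15 RPKM) in 4 of 4 libraries. Magel2 was listed at 0 in all 4 morula libraries. The tables of the 2 stages were normalised separately, so levels across stages were set side by side with no test.

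In morulae Snrpn came almost wholly from the paternal allele with or without maternal Eed. Its maternal reads were 5 of 1090 and 3 of 1133 in the 2 CTR libraries and 2 of 1001 and 7 of 1725 in the 2 matKO libraries, over 3 variants. These are 0.46% (95% Wilson interval 0.20 to 1.07), 0.26% (0.090 to 0.78), 0.20% (0.055 to 0.73) and 0.41% (0.20 to 0.84). All 4 intervals overlapped, and no library reached 2% at its upper bound. Pooled by genotype the maternal share was 0.36% (exact 95% interval 0.16 to 0.71) of 2223 reads in CTR and 0.33% (0.15 to 0.63) of 2726 reads in matKO. The maternal to paternal ratio differed by -0.15 on the log2 scale between genotypes (edgeR quasi-likelihood, adjusted p = 1), a test in which 2 of 7872 genes, or 0.0254%, passed an adjusted p of 0.05 and 314 had an unadjusted p under 0.05. None of the 3 domain genes tested passed it. Intervals cover counting error only, since reads amplified from cDNA are not independent molecules.

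D7Ertd715e, the long noncoding transcript, was also read almost wholly from the paternal allele in morulae. Its maternal reads were 0 of 445 and 1 of 225 in CTR and 1 of 216 and 1 of 329 in matKO, over 7 variants. The count of 0 of 445 allows a share of up to 0.67% as 3 counts of the total, and up to 0.86% as the Wilson upper bound. Every library thus held at most 1 maternal read. The log2 ratio differed by 1.14 between genotypes (edgeR quasi-likelihood, adjusted p = 1), a value that rests on 3 maternal reads in all. Snurf had the same reads as Snrpn in every morula library, and its total RPKM was that of Snrpn divided by 16.7 to 16.8 in morulae and 15.9 to 17.2 in ExE. Both names share 1 listed interval and stood in a near-constant ratio, so Snurf is not independent evidence beside Snrpn.

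In ExE Snrpn was also read mainly from the paternal allele in both genotypes, with 3 libraries of higher maternal signal. Its maternal percent of allelic RPKM was 0.68 and 4.62 in CTR females 1 and 2 and 0.33 and 0.30 in CTR males 1 and 2. In matKO females 1 to 4 it was 0.29, 0.26, 0.97 and 0.76. In matKO males 1 to 5 it was 1.30, 0.79, 0.22, 7.15 and 3.54. CTR female 2 and matKO males 4 and 5 stood above all others, which lay at 1.30% or below, and the genotypes overlapped fully.

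**Figure D1:**
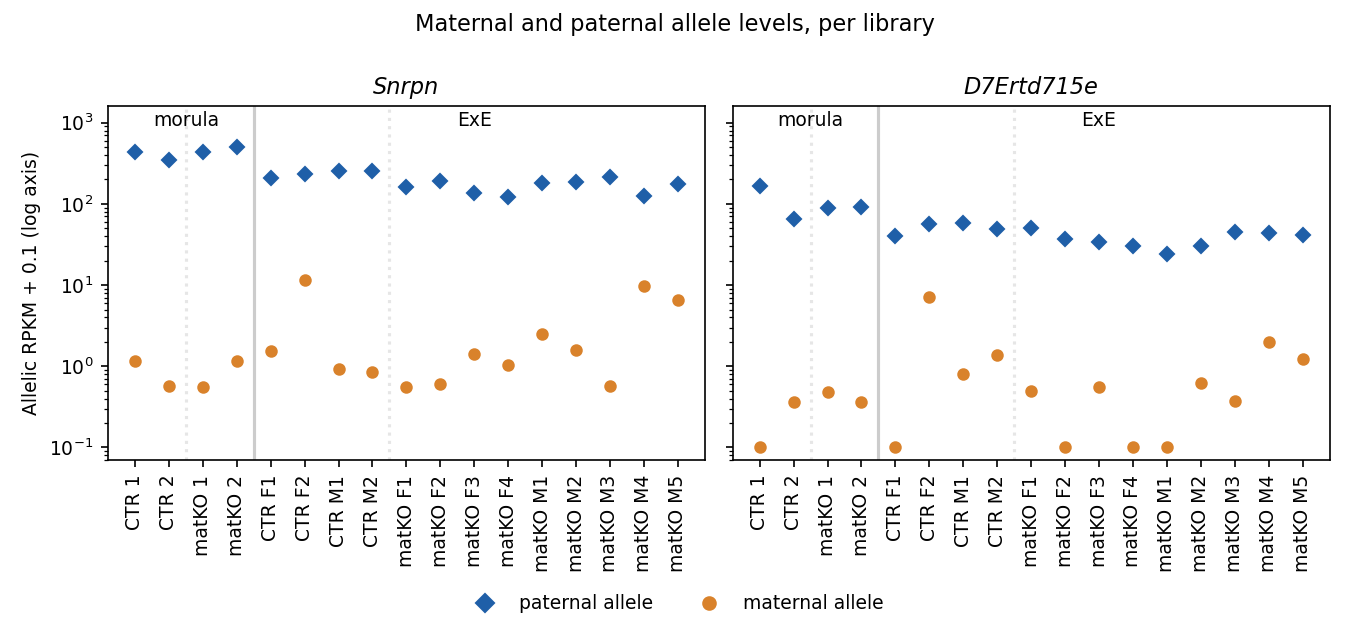
Maternal (circles) and paternal (diamonds) allelic RPKM of Snrpn and D7Ertd715e in each library, with 0.1 added, on a log axis; values at 0 lie at 0.1. The paternal level was above the maternal level in all 17 libraries for both genes, and CTR F2, matKO M4 and matKO M5 had the highest maternal levels of Snrpn.

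Averaged over the sexes, the maternal percent of Snrpn in ExE was 0.10 percentage points higher in matKO than in CTR (exact two-sided permutation of genotype within sex, 315 arrangements, p = 0.924; the smallest p this design allows is 0.00317). The sign rested on single libraries: the difference was -0.88 points without CTR female 1, -0.47 without matKO male 4, -0.015 without matKO male 5 and 1.09 without CTR female 2. With matKO female 1 and males 4 and 5 all left out it was -0.77 points (exact permutation, p = 0.55). The mean was 1.48 ± 2.1% (SD, n = 4) in CTR and 1.70 ± 2.28% (SD, n = 9) in matKO, or 0.66 ± 0.41% (SD, n = 7) without males 4 and 5. Within females the difference was -2.08 points (exact permutation, p = 0.2) and within males 2.28 points (exact permutation, p = 0.429). The smallest p is 0.0667 within females, where the test could not pass 0.05, and 0.0476 within males. The genotype effect (matKO minus CTR) on the log2 ratio in males minus that in females was 2.74 ± 1.18 (SE), with an unadjusted p of 0.0382 and an adjusted p of 0.711 (limma), in a test where 15 of 8713 genes, or 0.172%, passed. It was 1.65 without CTR female 2, the library with the highest maternal share among controls.

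The same comparison as log2 ratios across all genes gave 0.30 ± 0.59 (SE) for Snrpn (limma, adjusted p = 0.952), 0.62 ± 0.47 for Snurf (adjusted p = 0.776) and -0.31 ± 0.37 for D7Ertd715e (adjusted p = 0.904), averaged over the sexes. None of the 3 domain genes tested passed, against 33 of 8713 genes, or 0.379%, of the whole table, while 837 genes had an unadjusted p under 0.05. For Snrpn the value was -0.24 without CTR female 1, 0.85 without CTR female 2 and 0.068 without matKO male 4. For D7Ertd715e it was 0.32 without CTR female 2 and -0.93 without CTR female 1. The 95% interval for Snrpn ran from -0.98 to 1.59, so these libraries bound a change of its allelic ratio only loosely. These ratios had 1 added to both alleles, so with a maternal value near 0 they rise when the paternal level falls. Mean paternal RPKM in CTR and matKO was 14.8 and 10.7 for Snurf, and 238 and 165 for Snrpn. How much of the fitted values comes from this was not tested. The columns of the ExE read count sheet matched the library of their own name in 3 of 13 cases but a library of their own genotype in 13 of 13, and were therefore pooled by genotype. Pooled Snrpn reads were 2.13% maternal (exact 95% interval 1.70 to 2.62) of 4043 in CTR and 1.89% (1.59 to 2.23) of 7150 in matKO. Of the 86 maternal CTR reads 57 came from 1 column, whose values best matched CTR female 2. Of the 135 maternal matKO reads, 48 and 29 came from the columns that best matched matKO males 4 and 5. The intervals cover counting error only and not the spread between columns. Pooled D7Ertd715e reads were 4.30% maternal (3.09 to 5.81) of 930 in CTR and 1.26% (0.78 to 1.92) of 1667 in matKO. Of the 40 maternal CTR reads 32 came from 1 column, the one that best matched CTR female 2.

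D7Ertd715e in ExE followed the same libraries as Snrpn. Its maternal percent of allelic RPKM was 0 and 11.01 in CTR females 1 and 2 and 1.22 and 2.53 in CTR males 1 and 2. In matKO it ran from 0 over a median of 0.77 to 4.14, and matKO male 4 was the highest, followed by matKO male 5 at 2.64. CTR female 2 stood above the other 12 libraries. In that library the maternal RPKM was 11.5 for Snrpn against 0.75 to 1.44 in the other 3 CTR libraries, and 7.06 for D7Ertd715e against 0 to 1.27. Over 4995 autosomal genes the median maternal percent was 49.9 to 50.1 in all 13 libraries, CTR female 2 included, at 50.1. The maternal share was also read for 9 other genes listed as paternally expressed, with a control region methylated on the maternal allele. Of these, 3 were higher in CTR female 2 than in the other 3 controls, among them Peg3 at 15.9% against 0.19 to 1.54. Sgce, Mest and Inpp5f lay within the range of those controls, and Nnat, Peg10 and Airn were at 0 in every control. Inpp5f was not mainly paternal here, at 26.5 to 63.4% maternal in those controls. In matKO male 4 and matKO male 5, 3 and 6 of the 9 stood above the other 7 matKO libraries. Some library is the highest for any gene, and these counts were not made over all genes. Whether a shared source lies behind the maternal reads of these libraries was not tested.

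Snurf maternal values in ExE ran from near 0 (1.77e-05 RPKM in CTR female 1) to 3.95 RPKM in matKO male 4, where they made 33.1% of its allelic RPKM. Snurf and Snrpn lie on the same transcript, and in matKO male 4 the Snrpn share was 7.15%. The ratio of both names was thus far from constant for the maternal values, in contrast to the total. The read counts gave lower shares: the highest maternal share of Snurf in any ExE count column was 9.83%, or 45 of 458 reads, in the column whose values best matched matKO male 4. In morulae the Snurf share by allelic RPKM was also above that by reads, at 3.64% against 0.46% in CTR 1. In pooled ExE reads Snurf was 1.59% maternal in CTR and 1.60% in matKO.

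Of 6 flanking genes on chromosome 7 with allelic values, 5 lay between 37.3% and 60.5% maternal in every ExE library, while Nipa1 was mostly paternal, at 13.6 ± 3.35% (SD, n = 4) in CTR and 4.63 to 34.3% in matKO. Ube3a, the ubiquitin ligase gene next to the domain, had a maternal percent of 51.1 ± 3.11 (SD, n = 4) in CTR ExE and 49.1 ± 5.24 (SD, n = 9) in matKO. In morulae its maternal percent was 39.4 and 51.2 in CTR and 40.4 and 42.2 in matKO. Herc2 was at 43.2 ± 3.66 and 48.2 ± 6.00, and Cyfip1 at 49.3 ± 1.52 and 53.0 ± 2.55, in CTR and matKO ExE. The share of Ube3a thus lay far above that of Snrpn and D7Ertd715e in every ExE library. Of 11 flanking genes, 6 could be tested for allelic ratio in ExE and none passed, with a median difference of -0.057 against -0.0065 over all genes (limma; 0 of the 6 at an unadjusted p under 0.05).

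**Figure D2:**
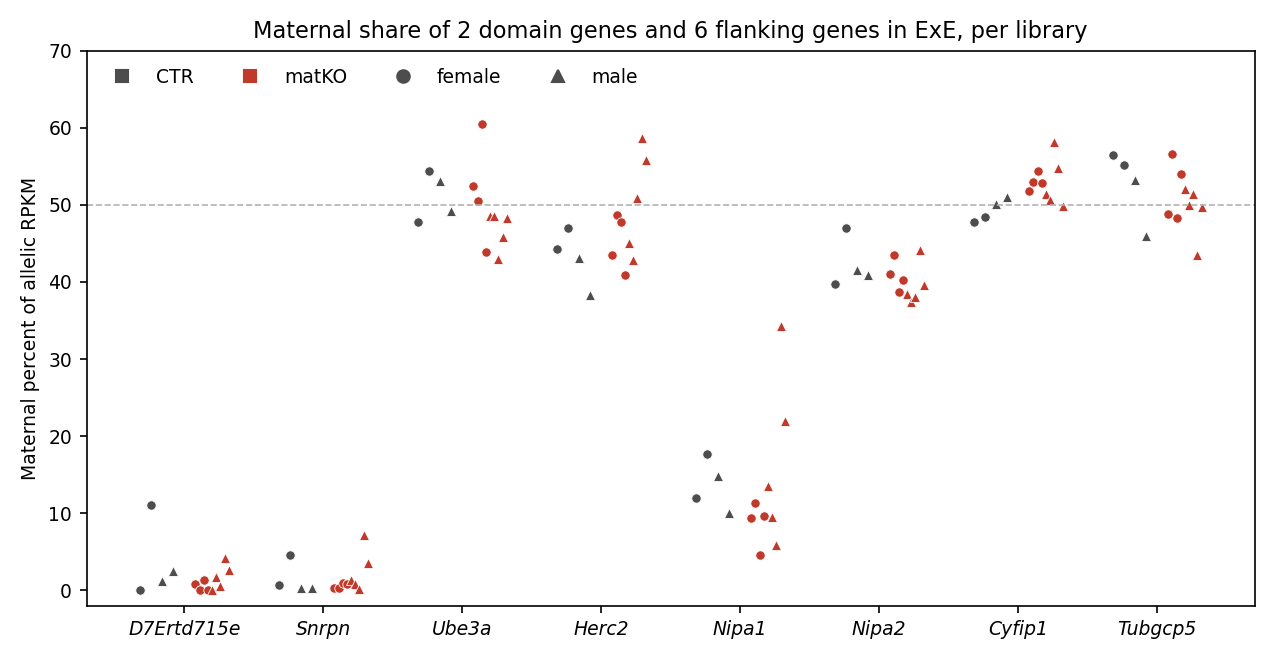
Maternal percent of allelic RPKM of Snrpn, D7Ertd715e and 6 flanking chromosome 7 genes in each of the 13 ExE libraries, with CTR in grey and matKO in red, females as circles and males as triangles; the dashed line marks 50%. Snrpn and D7Ertd715e lay at 11.01% or below, and Ube3a between 43.0% and 60.5%.

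Mkrn3 differed from Snrpn in its alleles, at low depth. In pooled ExE reads over 3 variants 31 of 87 were maternal, or 35.6% (exact 95% interval 25.6 to 46.6). Of these, CTR gave 12 of 30 maternal reads (40.0%, 22.7 to 59.4) and matKO 19 of 57 (33.3%, 21.4 to 47.1). Both intervals overlapped and both lay above those of Snrpn, and maternal reads were present in 11 of 13 columns, each of which held 2 to 11 reads of both alleles together. Mkrn3 total RPKM was 0.59 to 0.74 in CTR ExE and 0.21 to 1.02 in matKO, which overlapped, and its mean in matKO was 94.4% of that in CTR. Mkrn3 stood below the filter of a mean of 1 RPKM at both stages. Allelic RPKM of Ndn were 0 or under 2 in every library and those of Peg12 under 0.5, too low for a share, and neither gene had allelic read counts.

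The total level of the domain in ExE was lower in matKO libraries by the point estimate of all 5 genes that passed the filter, but none of them passed the test across all genes. Total Snrpn was 117 and 143 RPKM in CTR females 1 and 2 and 142 and 139 in CTR males 1 and 2. In the 9 matKO libraries it ran from 76.2 over a median of 93.6 to 125. All but matKO male 3, at 125 RPKM, lay below every control. The mean was 136 ± 12.5 RPKM (SD, n = 4) in CTR and 97.2 ± 17.7 (SD, n = 9) in matKO, or 71.7% of CTR. The fitted difference was -0.50 ± 0.13 (SE) on the log2(RPKM + 1) scale, averaged over the sexes, with an unadjusted p of 0.00216 and an adjusted p of 0.124 (limma). In this test 5 of 9915 genes, or 0.0504%, passed an adjusted p of 0.05, and 1592 had an unadjusted p under 0.05.

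The paternal level of Snrpn, which made up nearly all of its allelic signal, differed alike. Paternal Snrpn was 238 ± 19.6 RPKM (SD, n = 4) in CTR ExE and 165 ± 32.3 (SD, n = 9) in matKO, or 69.7% of CTR. Of 9 matKO libraries 8 lay below all controls for the paternal level, and matKO male 3 at 213 RPKM lay within their range. In these bulk libraries fewer expressing cells and less RNA per cell cannot be told apart. Snrpn was lower by a like amount without matKO males 4 and 5, at -0.41 (adjusted p = 0.0797), and within each sex, where the means were 130 and 89.95 RPKM in CTR and matKO females and 141 and 103 in males.

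**Figure D3:**
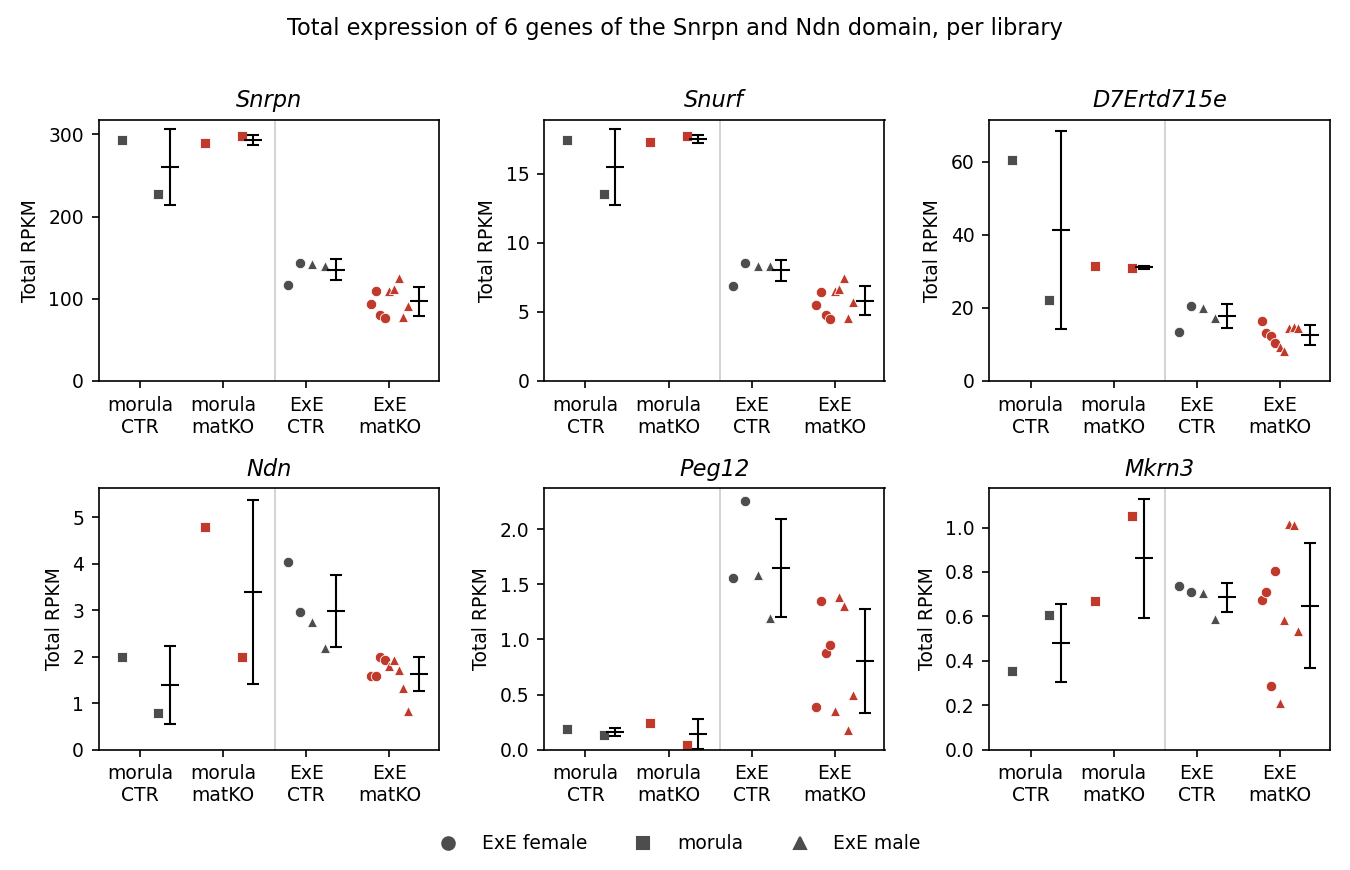
Total RPKM of 6 domain genes in each library by stage and genotype; points are libraries (squares morulae, circles ExE females, triangles ExE males) and bars the mean with 1 SD. All 9 matKO ExE libraries lay below all 4 controls for Ndn, and 8 of 9 did for Snrpn.

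Ndn, which encodes the MAGE protein necdin, was the only domain gene whose ExE groups did not overlap. It was 4.04 and 2.97 RPKM in CTR females 1 and 2 and 2.75 and 2.18 in CTR males 1 and 2. In matKO it ran from 0.84 in male 5 over a median of 1.72 to 2.00 in female 3. All 9 matKO libraries lay below all 4 controls, as they did for 137 of 9915 genes, or 1.38%. The matKO mean of 1.64 ± 0.37 RPKM (SD, n = 9) was 54.8% of the CTR mean of 2.99 ± 0.78 (SD, n = 4). The fitted difference was -0.58 ± 0.13 (SE) with an unadjusted p of 0.0008 and an adjusted p of 0.104 (limma), rank 76 of 9915 by p. Without matKO males 4 and 5 it was -0.49, with an adjusted p of 0.0515. The log2(RPKM + 1) scale understates changes of low genes such as Ndn and Peg12.

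Peg12, the Frat family gene at the far end of the domain, was at 1.56 and 2.26 RPKM in CTR females 1 and 2 and 1.58 and 1.19 in CTR males 1 and 2. In matKO ExE it ran from 0.18 in male 4 over a median of 0.88 to 1.38 in male 2. Of the 9 matKO libraries 6 lay below all controls and 3 lay within their range. The matKO mean was 49.1% of the CTR mean, and the fitted difference was -0.57 ± 0.20 (SE), with an adjusted p of 0.211 (limma), or -1.10 with a pseudocount of 0.1. In the authors' deposited table of genes changed in female ExE, Peg12 was listed as lower with a log2 ratio of -1.02, among 96 lower genes, or 0.426% of all listed. No domain gene stood in the authors' deposited table for males, which lists 400 genes.

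D7Ertd715e was at 13.3 and 20.7 RPKM in CTR females 1 and 2 and 19.96 and 17.3 in CTR males 1 and 2. In matKO it ran from 8.25 over a median of 13.1 to 16.5 RPKM, and 5 of 9 libraries lay below all controls. The fitted difference was -0.47 ± 0.18 (SE), with an adjusted p of 0.225 (limma). Snurf, which shares its listed interval with Snrpn, differed by -0.43 ± 0.12 (adjusted p = 0.139). Magel2, at most 0.082 RPKM in any ExE library, could not be compared. Taking Snurf and Snrpn as 1 transcript, 4 transcripts of the domain were tested in ExE.

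Between the 5 genes tested in ExE, differences ran from -0.58 to -0.43 with a median of -0.50, against a median of 0.013 over all 9915 genes. All 5 had an unadjusted p under 0.05, as did 676 genes with lower levels in matKO over the whole table, and 0 of 5 passed after adjustment. Between 2.45% and 4.43% of all genes had a lower fitted difference than each of them. The difference between the sexes in the genotype effect passed for 0 of the 5, and for 0 of 9915 genes (0%; limma), with 170 genes at an unadjusted p under 0.05. Beside the domain, Eed total RPKM was also lower in matKO ExE, at 96.6 ± 21.0 against 134 ± 15.2, with an adjusted p of 0.216.

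**Figure D4:**
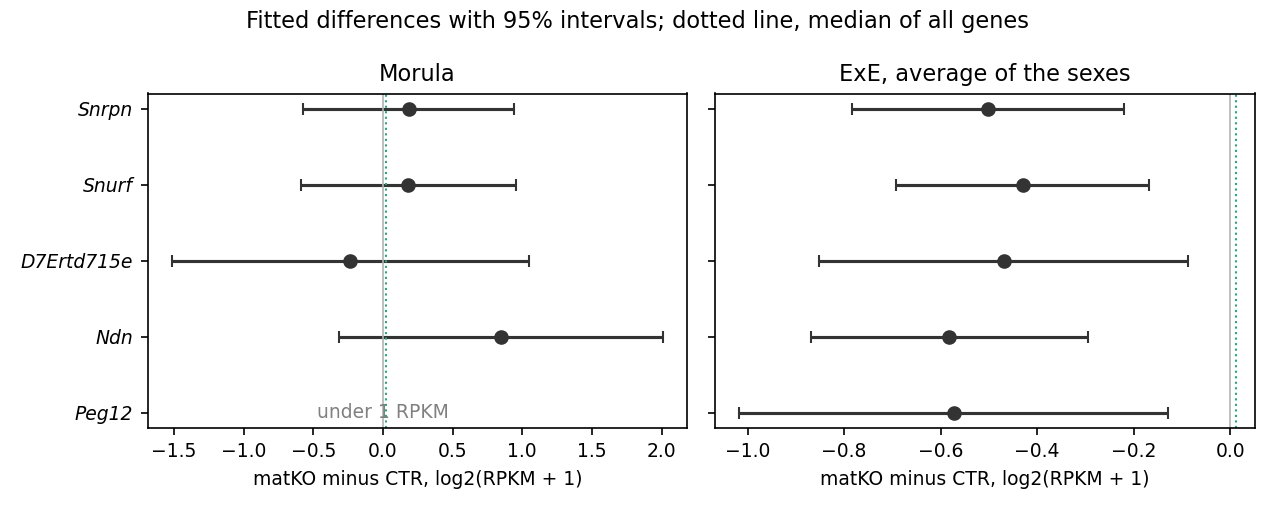
Fitted matKO minus CTR differences on the log2(RPKM + 1) scale with 95% intervals for the genes of the domain that passed the filter, in morulae and in ExE; the dotted line is the median of all genes tested. The 5 ExE values lay between -0.58 and -0.43, and all 4 morula intervals crossed 0.

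In morulae the total levels of the domain did not differ in 1 direction, and 3 of the 4 genes tested had point estimates above 0. Snrpn was 293 and 227 RPKM in CTR 1 and 2 and 289 and 297 in matKO 1 and 2, and the genotypes overlapped. Its fitted difference was 0.18 ± 0.30 (SE), with an adjusted p of 0.999992 (limma) and a 95% interval from -0.57 to 0.94, which holds the ExE value of -0.50. D7Ertd715e was 60.6 and 22.2 RPKM in CTR and 31.5 and 30.9 in matKO, so that both matKO libraries lay between the controls. Peg12 was at 0.043 to 0.24 RPKM and Mkrn3 at 0.36 to 1.05 RPKM in the 4 morula libraries, both below the filter.

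Ndn in morulae was 1.99 and 0.79 RPKM in CTR 1 and 2 and 4.80 and 1.99 in matKO 1 and 2. The lower matKO library and the higher control were both at 1.99. The fitted difference was 0.85 ± 0.47 (SE), with an unadjusted p of 0.122 and an adjusted p of 0.999992 (limma), and leaving out 1 library at a time moved it between 0.37 (without matKO 1) and 1.33 (without matKO 2). None of the 4 domain genes tested in morulae passed, nor did any of 10329 genes (0%), of which 92 had an unadjusted p under 0.05. In the authors' deposited table of genes with higher levels in matKO morulae, Ndn was listed with a log2 ratio of 1.23, among 178 genes or 0.79% of all listed. The morula difference in Ndn was thus positive and the ExE difference negative, and the change of sign between stages was not tested.

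Other genes tied to the proteins of the domain were read from lists. None of their tested genes passed in total expression (limma) at either stage or in allelic ratio. Some were at an unadjusted p under 0.05. In ExE total expression these were 1 of 6 flanking, 1 of 7 Sm core, 1 of 6 MAGE and 1 of 10 paternally expressed genes, all lower. Over all genes 676 of 9915 were lower. In morula allelic ratio 1 of 3 MAGE and 1 of 5 paternally expressed genes were higher, against 152 of 7872 over all genes. In ExE allelic ratio 1 of 6 MAGE genes was lower, against 530 of 8713, and 1 of 9 paternally expressed genes was higher, against 307 of 8713. The 7 Sm core protein genes had a median ExE difference of -0.090, with Snrpe at -0.038 ± 0.11 (SE) and Snrpg at -0.093 ± 0.080. Of 7 MAGE relatives and partners 6 were tested in ExE, with a median of -0.047; Trim27, the ubiquitin ligase partner of Magel2, was at 0.11 ± 0.078 and Ndnl2 at -0.048 ± 0.059. The makorins Mkrn1 and Mkrn2 were at 0.15 ± 0.11 and 0.17 ± 0.088. Among Frat and GSK3 genes 3 of 4 were tested, with Gsk3a at 0.23 ± 0.17 and Gsk3b at -0.091 ± 0.11.

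The 11 imprint maintenance genes had a median ExE difference of -0.071, with Trim28, the corepressor that ZFP57 recruits, at -0.026 ± 0.087 (SE) and the DNA methyltransferase Dnmt3b at -0.22 ± 0.15. Of 14 other paternally expressed genes at control regions methylated on the maternal allele 10 were tested in ExE total expression. Their median was -0.12, with Mcts2 at 0.16 ± 0.12 and Mest at -0.31 ± 0.42. In ExE allelic ratio 9 were tested and none passed. All 9 had a higher maternal to paternal ratio in matKO, with a median log2 difference of 0.63 against -0.0065 over all genes. In maternal percent, matKO male 5 stood above the other 7 matKO libraries for 6 of the 9, and matKO male 4 for 3. A median without these males is not given, so a change across all matKO libraries is not shown. The limit given above for ratios with 1 added holds here too. The 9 include Inpp5f, which was not mainly paternal here. Peg3, named after its values were seen, was at -0.75 ± 0.13 in ExE total expression (limma, adjusted p = 0.054). Its level was 25.7 ± 3.35 RPKM (SD, n = 4) in CTR and 14.8 ± 2.59 (SD, n = 9) in matKO. The Peg3 difference was larger than that of any gene of the domain on the log2(RPKM + 1) scale only, which understates changes of low genes. By group means Ndn stood at 54.8% and Peg12 at 49.1% of CTR. For Trim28 and Mest the sign turned without matKO males 4 and 5. Of the 11 flanking genes 6 were tested, with a median of -0.046, Nipa2 at 0.16 ± 0.095 and Ube3a at -0.31 ± 0.093, for which the adjusted p was 0.154 (limma). Total Ube3a was 28.9 ± 3.01 RPKM (SD, n = 4) in CTR and 23.1 ± 2.46 (SD, n = 9) in matKO ExE. Of 8 noncoding RNA names of the domain 3 were in the tables and none passed the filter.

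Within ExE, Snrpn total levels followed those of Peg12 (Pearson r = 0.70, Spearman rho = 0.77 over 13 libraries) and Ndn (0.54 and 0.60) more closely than those of Mkrn3 (0.064 and 0.055), on the log2(RPKM + 1) scale and with no test. Among 9915 genes the 5 outside the domain most like Snrpn were Vwa5a (r = 0.93), Pcmt1 (0.93), Rhox4e (0.93), Apex1 (0.92) and Bex2 (0.91). The 5 most like Ndn were Grlf1 (0.89), Ndst2 (0.88), Galc (0.88), Rnase1 (0.87) and Gdap1l1 (0.87). These libraries share genotype and depth differences, so the values are descriptions. Most like the maternal share of Snrpn over 4994 autosomal genes were Chmp5 (0.87), Fgfr1op2 (0.85), Car2 (0.84), Bmp8b (0.84) and Klf9 (0.84). Their Spearman values, in the same order, were 0.73, 0.55, 0.83, 0.56 and 0.45. The Snrpn share was highest in matKO male 4, so genes picked by Pearson r tend to be highest there. That trait of theirs is therefore no separate result. For each of these 5 genes the highest maternal percent was in matKO male 4, such as 82.5 for Car2, a carbonic anhydrase gene, against 53.7 to 60.4 in the 10 libraries other than CTR female 2 and matKO males 4 and 5.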

How the data were processed

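RNA-seq of 4 morula and 13 ExE libraries was analysed; 2 CUT&RUN samples were not analysed here. HISAT2 2.1.0, Cufflinks 2.2.1 and build mm9 are named in the submitters' processing notes. The method of allele assignment is not given in the sources used here. The authors deposited total and allelic RPKM and whole-number allelic read counts over variants, per the file headers. The authors deposited log2 ratios of matKO over CTR in tables of changed genes, per the file headers; 21 per-sample columns there were not used.

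Groups came from the labels. For total levels, genes averaging 1 RPKM or more over a stage were transformed to log2(RPKM + 1) and fitted in R 4.3.3 by limma 3.58.1 with a trended prior, both sexes of ExE in 1 fit, which gave the genotype effect averaged over the sexes and its difference between them (males minus females). Morula allelic counts were compared with edgeR 4.0.16 (quasi-likelihood; library as block, allele by genotype term, mean of at least 20 reads). ExE allelic ratios were compared with limma on log2 of maternal over paternal RPKM after adding 1 (mean allelic sum of at least 2 RPKM). The p-values were Benjamini-Hochberg adjusted over all genes tested, with a threshold of 0.05. The exact permutation test, shares, intervals (95%), correlations, motifs and figures were made in Python 3.11.15, with matplotlib 3.10.9 for plots, scipy 1.17.1 for tests, and numpy 2.4.6 beside pandas 2.3.3 for tables. The fits were tested on simulated data. In the simulated morula allelic counts the CTR maternal shares were kept away from both extremes. CTR shares as low as those of Snrpn and D7Ertd715e were thus not covered. Simulated ExE log2 ratios were drawn with normal spread and not from separate allele values. Maternal values near 0 were thus not reproduced there either.

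The 7 genes and all lists were chosen with earlier results of these data known. Named were the 7 genes, Eed, up to 4 passing genes per list or otherwise the 2 most abundant, and the 5 genes most like Snrpn, Ndn or the maternal share of Snrpn; other names were chosen after their values were seen. RPKM cannot show read depth. Alternatives, with DESeq2 1.42.0 among them, are in the closing section. Same-number morula libraries deviated together (r = 0.70), but 2 pairs with no shared source in the labels do not pair the samples.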

Additional observations from a re-analysis of the deposited data

Results flagged for a closer look

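In 40 groups of 4 to 9 ExE libraries a single value was compared with the rest of its group by Dixon's rule, which chance meets in about 1 in 20 groups, and 6 groups stood out. The groups overlap, and Snurf and Snrpn share 1 listed interval. Among the 4 controls, CTR female 1 was lowest in total Snrpn, at 117 RPKM with the next at 139, and in total Snurf, at 6.88 RPKM with the next at 8.28. CTR female 2 had the highest maternal share of Snrpn in the controls, 4.62% with the next at 0.68%. Among the 9 matKO libraries, male 4 had the highest maternal share of Snrpn, 7.15% with the next at 3.54%. The same library had the highest maternal share of Snurf, 33.1%, both among the 9 matKO libraries, where the next was 11.2%, and among the 5 matKO males, where the next was 3.31%; the highest share in any Snurf read count column was 9.83%.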

How the results depend on the processing

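No gene of the domain passed the threshold in any comparison under any alternative run. For total levels in ExE, the 5 genes kept their negative sign in all alternatives; the adjusted p of Ndn ran from 0.0515 to 0.482 and that of Snrpn from 0.0797 to 0.482. Counts of genes passing over the whole table moved more; the cause was not tested.

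With the replicate block, which the labels do not show to be a pairing, counts went from 0 to 164 (morula total), 5 to 45 (ExE total), 0 to 4 (sex difference of the genotype effect, from here on sex difference, in total), 2 to 43 (morula allelic), 33 to 15 (ExE allelic) and 15 to 2 (sex difference in allelic), and the Snrpn allelic difference in ExE turned to -0.20. Same-number ExE libraries correlated at -0.038 to 0.058. With no filter the counts were 38 (ExE total), 1 (sex difference in total), 4 (morula allelic), 20 (ExE allelic) and 5 (sex difference in allelic). ExE total gave 69 without matKO males 4 and 5, 11 at 5 RPKM, 10 with a pseudocount of 0.1 and 13 with quantile scaling. Morula allelic gave 14 with DESeq2 and 0 with limma on RPKM. ExE allelic gave 6 with edgeR on counts by genotype and 12 without matKO female 1 and males 4 and 5, where the Snrpn ratio turned to -0.099 and its share to -0.77 points. The sex difference in allelic ratio gave 46 with a pseudocount of 0.1.

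Leaving out 1 library at a time, counts ran from 1 to 16 (morula total), 3 to 17 (ExE total), 0 to 1 (sex difference in total), 0 to 123 (morula allelic), 10 to 96 (ExE allelic) and 0 to 77 (sex difference in allelic). The Snrpn share difference ran from -0.88 to 1.09 points. Log2 differences that crossed 0 ran from -0.24 to 0.85 (Snrpn) and -0.93 to 0.32 (D7Ertd715e) for ExE allelic, -0.060 to 2.44 (D7Ertd715e) for its sex difference, -0.82 to 0.29 (Snrpn, Snurf) and -0.28 to 3.97 (D7Ertd715e) for morula allelic, -0.94 to 0.47 (D7Ertd715e) for morula total, and in ExE total -0.12 to 0.042 (Snrpe) and -0.086 to 0.035 (Trim28). Trim28 was 0.036 with the replicate block and 0.027 without matKO males 4 and 5, and Mest 0.0047 in the latter. Without those males, 189 genes in place of 137 had all matKO libraries below all controls, an alternative chosen after seeing the data, and Ndn was among them.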

Other observations

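Nipa1, a magnesium transporter gene on the flank of the domain, was named here after its values were seen. In ExE its reads were mostly paternal over 3 variants: the maternal percent of allelic RPKM was 13.6 ± 3.35 (SD, n = 4) in CTR and ran from 4.63 to 34.3 in matKO, where male 4 (34.3) and male 5 (21.9) were the highest. Its neighbours Nipa2 and Tubgcp5 were at 42.3 ± 3.19 and 52.7 ± 4.69 in CTR. Total Nipa1 was 20.8 ± 1.18 RPKM in CTR and 2.83 and 5.8 RPKM in matKO males 4 and 5, against 13 to 19.1 in the other 7 matKO libraries. It differed by -0.69 ± 0.37 (SE) on the log2(RPKM + 1) scale, with an adjusted p of 0.375 (limma). In morulae it was at 0.045 to 0.61 RPKM.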
